A study of Homo sapiens with 2 samples.

Results

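In a single-cell RNA experiment on prostate epithelial cells, 728 of the 29859 barcodes held almost no mitochondrially encoded RNA. They were chosen by 3 measured values. These were at least 200 detected genes, at least 1000 UMIs and less than 0.5% of UMIs in MT- genes. A UMI (unique molecular identifier) stands for 1 captured RNA molecule, and MT- genes are the 13 protein-coding genes of the mitochondrial genome. Of them, 716 came from the RWPE-ERG-mAKT library, out of 17355 barcodes, and 12 from the RWPE1 library, out of 12504. They are called low-mitochondrial barcodes here. The working label for them, "nucleus-like", went against the data. RNAs kept in the nucleus and the RNA of long, intron-rich genes were lower in them than in other barcodes of the same library, and mRNAs of ribosomal proteins and of nuclear-encoded respiratory subunits were not.

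RWPE1 is an immortalised line of human prostate epithelium, which GEO's labels give as a vector-only control. RWPE-ERG-mAKT is RWPE1 that expresses the transcription factor ERG from a retrovirus with the HNRNPA2B1 promoter, together with a constitutively active, myristoylated AKT1 (mAKT) from a second retrovirus, after selection with hygromycin and puromycin. Both were cultured cells loaded at 10000 cells and captured with droplet-based 3′ chemistry, with 1 library for each condition. Nothing in the design separates the genotype from the culture or the library, so no test between conditions was possible. Every interval below is a 95% interval that covers counting error within the barcodes counted and nothing else.

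Each of the 13 MT- genes is transcribed inside the mitochondrion, so its RNA marks the cytoplasm with its organelles, and the share of MT- reads is a usual measure of barcode quality. Isolated nuclei carry few MT- transcripts and are rich in unspliced RNA and in long noncoding RNAs held in the nucleus, above all MALAT1 in nuclear speckles and NEAT1, the scaffold of paraspeckles. mRNAs of ribosomal proteins are short, spliced and mostly cytosolic. These classes were therefore set side by side, after MT- genes had been left out of every total, with barcodes of at least 1000 UMIs and 2 to 7.5% MT- UMIs in the same library, the comparison barcodes (12106 in RWPE-ERG-mAKT and 10045 in RWPE1).

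The libraries held 237490385 UMIs (RWPE-ERG-mAKT) and 217340524 UMIs (RWPE1), with a median of 11720 and 15767 per barcode. Only 55 barcode sequences occurred in both libraries, and 2 of the 716 low-mitochondrial barcodes of RWPE-ERG-mAKT were among them, against 0 of the 12 of RWPE1. ERG was at 21.8 CPM (UMIs per 1000000 non-MT UMIs) in the comparison barcodes of RWPE-ERG-mAKT and at 1.52 CPM in those of RWPE1, the order that the labels give. AKT1 was at 19.0 and 23.2 CPM in the same barcodes, so mAKT was not visible as a higher AKT1 count there.

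Low-mitochondrial barcodes made up 4.27% (3.97 to 4.59%) of the 16762 RWPE-ERG-mAKT barcodes with at least 1000 UMIs and 200 genes. In RWPE1 they made up 0.0976% (0.0504 to 0.170%) of 12301. These shares are a description, since the MT- share defined the barcodes, and 1 library stood behind each. The study kept barcodes with 200 to 2500 genes and, as its methods were read here, less than 7.5% MT- reads. Within that window low-mitochondrial barcodes were a larger part of the RWPE-ERG-mAKT library, 608 of 2775 barcodes (21.9%, 20.4 to 23.5%), against 9 of 362 in RWPE1 (2.49%, 1.14 to 4.67%). Barcodes under 0.5% MT- at any UMI count, also those under 1000 UMIs, were 1006 of 2775 (36.3%) and 35 of 362 (9.67%). The low-mitochondrial barcodes held 16.8% of the UMIs of the RWPE-ERG-mAKT window and 2.29% of those of the RWPE1 window.

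The barcodes were small. In RWPE-ERG-mAKT they held a median of 2746.5 UMIs (1005 to 66538) and 1299.5 genes, against 12639 UMIs and 3974 genes in the comparison barcodes. In RWPE1 the medians were 1439.5 UMIs (1046 to 17927) and 897 genes, against 16828 UMIs and 4806 genes. Less than 5000 UMIs were found in 73.0% of the low-mitochondrial barcodes of RWPE-ERG-mAKT, against 4.20% of the comparison barcodes. Most of the difference in detected genes went with depth. After each barcode had been thinned to 900 non-MT UMIs, the median was 567 genes in low-mitochondrial and 619 in comparison barcodes of RWPE-ERG-mAKT, and 592.5 and 624 in RWPE1.

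All MT- transcripts were scarce, as the selection set. The median MT- share was 0.0891% in low-mitochondrial and 3.03% in comparison barcodes of RWPE-ERG-mAKT, and 0.154% and 5.45% in RWPE1. No MT- UMI at all was found in 98 of the 716 barcodes of RWPE-ERG-mAKT (13.7%) and in 2 of the 12 of RWPE1. MT-CO2, a subunit of cytochrome c oxidase, was at 552 and 8496 per 1000000 UMIs of any kind in low-mitochondrial and comparison barcodes of RWPE-ERG-mAKT, and MT-ATP6, of the ATP synthase, at 232 and 4767. MT-ND6, the only MT- protein gene of the light strand, was at 2.27 and 49.9.

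MALAT1 (chr11:65497688-65506516, hg38, a long noncoding RNA of 8.83 kb) was low in these barcodes. Its median share of non-MT UMIs was 0.0187% (quartiles 0 and 0.0628%) in the low-mitochondrial barcodes of RWPE-ERG-mAKT, against 0.793% (0.450 and 1.20%) in the comparison barcodes. In RWPE1 the medians were 0.0526% and 0.983%. Summed over barcodes, MALAT1 had 6711 UMIs or 1698 CPM in low-mitochondrial and 8177 CPM in comparison barcodes of RWPE-ERG-mAKT, which is -2.27 on the log2 scale (-2.30 to -2.23). In RWPE1 it had 94 UMIs or 1495 CPM, against 10416 CPM, a log2 ratio of -2.80 (-3.11 to -2.51). A single barcode held 69.1% of those 94 UMIs, and without it the log2 ratio was -4.29, a fall set by the choice of that barcode. In RWPE-ERG-mAKT no barcode held more than 6.21%. With the limit set at 1% MT- MALAT1 was within 2-fold in both libraries (-0.65 and -0.61).

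Many of the barcodes had no MALAT1 UMI at all. These were 316 of 716 (44.1%, 40.5 to 47.9%) in RWPE-ERG-mAKT, against 78 of 12106 comparison barcodes (0.644%). At the equal depth of 900 non-MT UMIs the shares were 518 of 716 (72.3%, 68.9 to 75.6%) and 790 of 12106 (6.53%). In RWPE1 they were 7 of 12 (58.3%, 27.7 to 84.8%) and 239 of 10045 (2.38%) at that depth. The lower MALAT1 level was therefore present at equal depth in both libraries.

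It was also present at each size of barcode for which both kinds existed in RWPE-ERG-mAKT. Between 2000 and 5000 UMIs the median MALAT1 share was 0.0211% in 284 low-mitochondrial and 0.702% in 443 comparison barcodes. Between 10000 and 20000 UMIs it was 0.0645% in 44 and 0.861% in 5168. Among barcodes of at least 20000 UMIs, of which 42 were low-mitochondrial, the medians were 0.0267% and 0.592%. The smallest barcodes, of 1000 to 2000 UMIs, had medians of 0 and 0.148%.

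**Figure D1:**
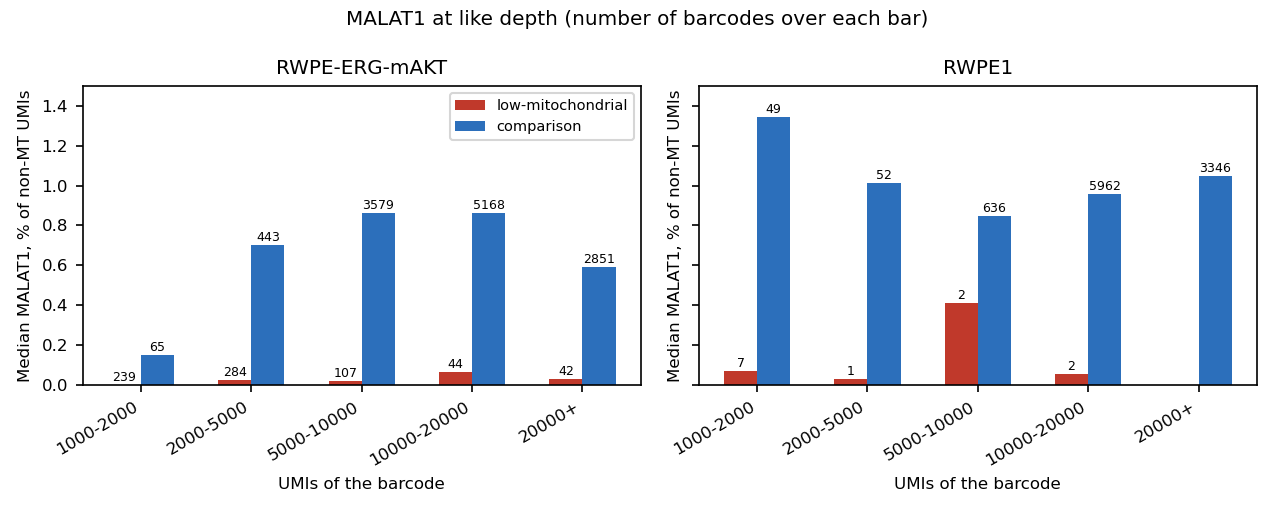
Median MALAT1 share of non-MT UMIs (y axis, percent) by the UMIs of a barcode (x axis, bins), RWPE-ERG-mAKT left and RWPE1 right, with low-mitochondrial barcodes in red beside comparison barcodes in blue and the number of barcodes over each bar. In RWPE-ERG-mAKT the red medians lie between 0 and 0.0645% and the blue ones between 0.148 and 0.861%.

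Along the MT- share the MALAT1 level of RWPE-ERG-mAKT changed close to the 0.5% limit. The median was 0.00566% in the 389 barcodes under 0.1% MT-, 0.0161% in the 201 from 0.1 to 0.25% and 0.0642% in the 126 from 0.25 to 0.5%. Just outside the limit, in 164 barcodes from 0.5 to 0.75%, it was 0.658%, and from 0.75% up to 7.5% it lay between 0.723 and 0.826%. The barcodes just inside and just outside also differed in size, with medians of 5673 and 10483 UMIs, and in their ribosomal protein share, 28.2 and 26.1%. In RWPE1 there were 4 barcodes just inside, with medians of 0.0526% MALAT1 and 9007 UMIs, and 13 just outside, with 0.774% and 18990 UMIs. The RWPE1 barcodes from 0.75 to 1% MT-, 10 in number, were low again at 0.114%.

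Barcodes with high MALAT1 lay toward the other end of the MT- range, though not in every bin there. In RWPE-ERG-mAKT the median MALAT1 share was 3.20% in 273 barcodes of 7.5 to 15% MT- and 4.42% in 62 barcodes of 15 to 30%. It was 0.177% in the 18 barcodes of that library from 30 to 100%. In RWPE1 it was 0.974% in 1425 barcodes of 7.5 to 15%, near the comparison barcodes. There it was 3.97% in 537 barcodes of 15 to 30% and 2.52% in 161 of 30 to 100%. Barcodes were then counted in which both its MALAT1 share and its share of UMIs in genes of at least 100 kb were above the 90th percentile of the comparison barcodes. In RWPE-ERG-mAKT these were 3 of the 716 low-mitochondrial barcodes (0.419%, 0.0865 to 1.22%), against 339 of 12106 comparison barcodes (2.80%) and 227 of 353 with at least 7.5% MT- (64.3%). In RWPE1 they were 0 of 12 (an exact interval up to 26.5%), 301 of 10045 (3.0%) and 709 of 2123 (33.4%).

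**Figure D2:**
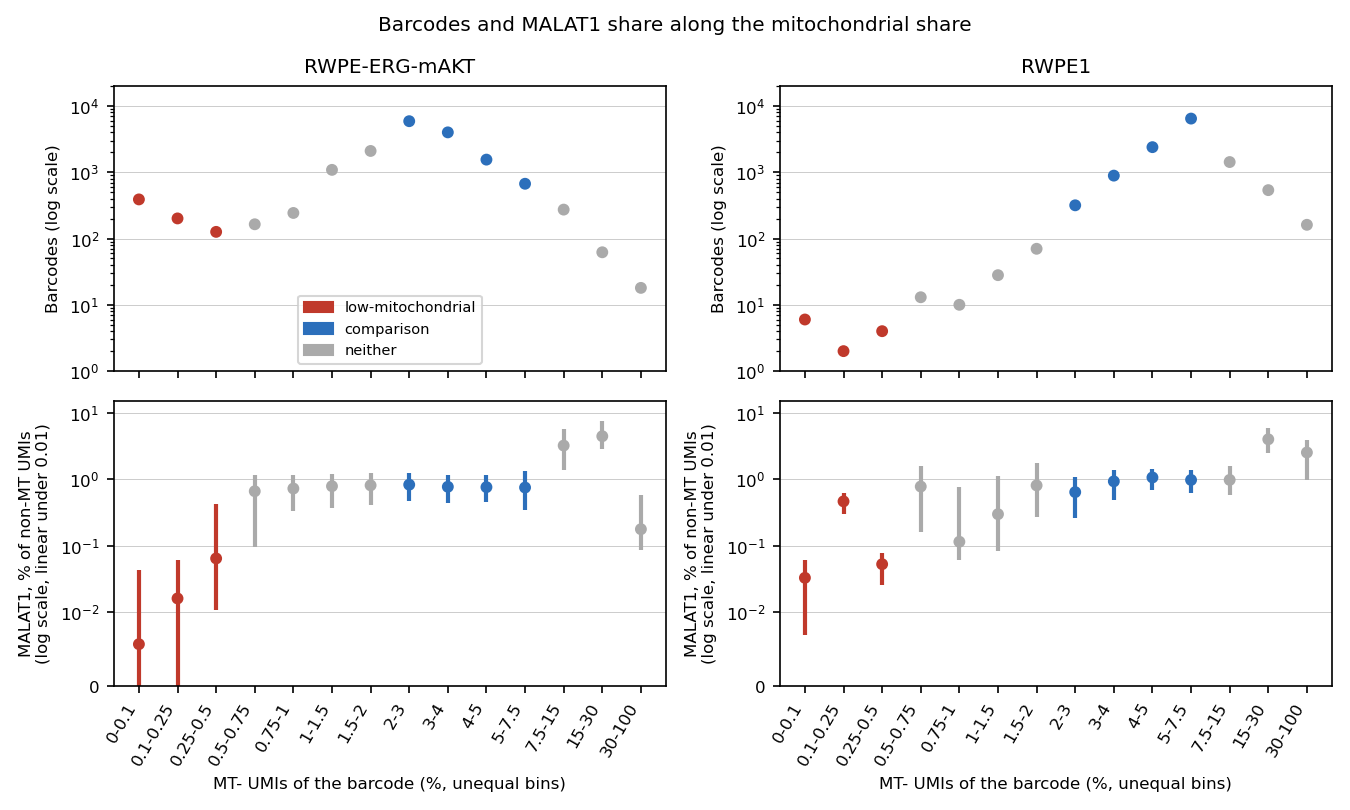
Number of barcodes with at least 1000 UMIs (upper panels, log axis) and MALAT1 share of non-MT UMIs (lower panels, percent, linear near 0 and logarithmic above, median with quartiles) by MT- share of all UMIs (x axis, bins), RWPE-ERG-mAKT left and RWPE1 right. Low-mitochondrial bins are red, comparison bins blue and all others grey, and the RWPE-ERG-mAKT median steps up between the bin that ends at 0.5% (0.0642%) and the next one (0.658%).

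NEAT1 (chr11:65422774-65445540, hg38) moved as MALAT1 did. It fell to 196 CPM in the low-mitochondrial barcodes of RWPE-ERG-mAKT, against 946 CPM (log2 ratio -2.27, 776 UMIs), and to 223 CPM in those of RWPE1, against 1672 CPM (-2.91, 14 UMIs). Of the 11 long nuclear RNAs listed, 8 had enough UMIs to be compared in RWPE-ERG-mAKT. Of these, 5 (62.5%) were more than 2-fold lower and 0 higher, against 20% lower and 0.416% higher over all compared genes. The list is small and its members differed. PVT1 (-2.51), FTX (-2.40) and KCNQ1OT1 (-2.15), the antisense RNA of an imprinted locus, were among the lower ones, while TUG1 (-0.74), JPX (-0.41) and OIP5-AS1 (-0.35) did not pass 2-fold. All 3 that could be compared in RWPE1, MALAT1, NEAT1 and PVT1, were lower there, but with a limit of 1% MT- NEAT1 was at -0.43 and PVT1 at -0.32. The list as a whole held 0.212% of non-MT UMIs in low-mitochondrial and 0.962% in comparison barcodes of RWPE-ERG-mAKT, and 0.205 and 1.31% in RWPE1.

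A minority of low-mitochondrial barcodes had ordinary MALAT1 levels. In RWPE-ERG-mAKT, 40 of 716 (5.59%, 4.02 to 7.53%) were at or above the lower quartile of the comparison barcodes, with a median of 8765.5 UMIs and an MT- share of 0.375%, so they were larger and nearer to the limit than the rest. Without these 40 the log2 ratio of MALAT1 was -4.04 and that of NEAT1 -2.99. The 40 were picked by their MALAT1 share, so a lower MALAT1 ratio without them was set by the choice. Across the 716 barcodes MALAT1 was only loosely tied to the share of long genes (Spearman rho 0.19, against 0.56 across the 12106 comparison barcodes) and to the ribosomal protein share (-0.19 and -0.43). These are descriptions across barcodes of 1 library, whose values share their totals.

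Across all genes the low-mitochondrial barcodes of RWPE-ERG-mAKT differed mainly by genes that were lower. Of 10092 genes with at least 20 expected UMIs, 2020 (20%) were more than 2-fold lower and 42 (0.416%) more than 2-fold higher, and the median log2 ratio was -0.32. When the classes were scaled by median-of-ratios in place of CPM, the median was -0.01 and the counts were 1212 lower and 106 higher. Changes of a group are therefore read against the median of all genes. In RWPE1 the 62892 non-MT UMIs of the 12 barcodes allowed 365 genes to be compared, the most abundant ones, of which 10 (2.74%) were lower and 19 (5.21%) higher, with a median of 0.32. Median-of-ratios scaling gave 10 lower and 12 higher there.

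The genes that could be compared in both libraries mostly had ratios of the same sign. Of these 365, 289 (79.2%) had the same sign, and the log2 ratios had a Spearman correlation of 0.44 and a Pearson correlation of 0.63 across genes, which are not independent of each other. Their medians were 0.20 in RWPE-ERG-mAKT and 0.32 in RWPE1, so the abundant genes were above the median of all genes in RWPE-ERG-mAKT too. With both medians above 0, like signs are frequent for that reason alone, and the part of this shift in the 79.2% was not separated. Genes lower in both libraries numbered 5, which is 83.3% of the 6 such genes called in RWPE-ERG-mAKT and 50% of the 10 called in RWPE1. Among the 365, 0 were called higher in RWPE-ERG-mAKT and 19 in RWPE1, so 0 were higher in both. The 5 lower in both were MALAT1, NEAT1, PVT1, EXT1 and EGFR.

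These 5 include 3 genes of over 100 kb. EXT1, which polymerises heparan sulphate, was at 41.0 CPM in low-mitochondrial and 191 CPM in comparison barcodes of RWPE-ERG-mAKT (-2.22) and at 175 and 569 CPM in RWPE1 (-1.70). EGFR, the receptor of epidermal growth factor, was at 154 and 433 CPM (-1.49) and at 302 and 1251 CPM (-2.05). PVT1 was at 28.3 and 161 CPM (-2.51) and at 175 and 559 CPM (-1.68). In RWPE1 1 barcode held 72.7% of the PVT1 UMIs. The RWPE1 values of PVT1 and EXT1 rested on few barcodes, and with the limit at 0.25% MT- they were -0.40 and -0.72. Against barcodes of 0.5 to 2% MT- they were -0.74 and -0.87, and with a limit of 1% EXT1 was -0.34 and EGFR -0.47.

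Gene length ordered the whole comparison in RWPE-ERG-mAKT. When the 10077 compared genes with an annotated span were divided into 10 bins of equal number, the median log2 ratio was 0.19 in the shortest (median span 3.45 kb), -0.23 at 30.1 kb, -0.52 at 58.3 kb, -0.96 at 131 kb and -1.46 in the longest (267 kb). The share of genes more than 2-fold lower was 1.19% in the shortest bin and 71.7% in the longest. The lower genes had a median span of 130 kb and the higher ones of 6.96 kb, against 35.5 kb over all compared genes. In RWPE1, where few long genes were abundant enough, the medians of 5 bins ran from 0.39 at 2.35 kb to 0.17 at 52.8 kb.

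**Figure D3:**
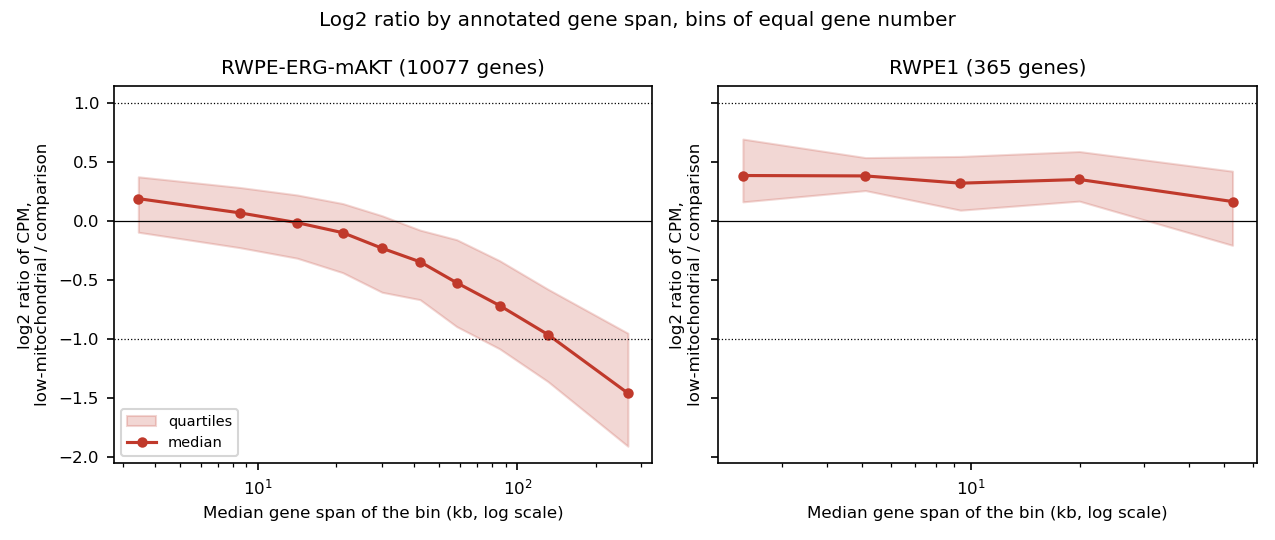
Log2 ratio of CPM, low-mitochondrial over comparison barcodes (y axis, median and quartiles of the genes in a bin), by gene span (x axis, kb, log scale), RWPE-ERG-mAKT left in 10 bins and RWPE1 right in 5 bins of equal gene number. The RWPE-ERG-mAKT medians fall from bin to bin, from 0.19 at 3.45 kb to -1.46 at 267 kb.

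The dependence on length was seen at every expression level. Among genes of at least 100 kb the median was -1.32 under 10 CPM, -1.28 from 10 to 30 CPM, -1.06 from 30 to 100 CPM and -0.54 at 100 CPM or more. Genes under 20 kb ran from -0.17 under 10 CPM to 0.24 at 100 CPM or more. Introns went with it. Genes with under 50% of their span in introns had a median of 0.04, those with 50 to 90% had -0.22 and those with at least 90% had -0.80, with 3.18, 11.1 and 39.6% of genes lower. Span, intron share and level are correlated features of a gene, and their parts in the result were not separated.

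The largest decreases among genes of at least 100 CPM in the comparison barcodes were in very long genes. FHIT, a gene of 1502 kb across a fragile site, was at 24.5 CPM in low-mitochondrial and 159 CPM in comparison barcodes of RWPE-ERG-mAKT (-2.70). PDE4D, a cAMP phosphodiesterase of 1553 kb, was at 37.4 and 224 CPM (-2.58). CDH13 (-2.56), RAD51B (-2.52) and EFNA5 (-2.51) were close to them. Some genes with a long annotated span and abundant mRNA were not lower. That span covers all annotated transcripts of a gene, and which of them were expressed was not tested. LDHB, lactate dehydrogenase B, with 123 kb, was at 971 and 885 CPM (0.13), EIF3E, a subunit of a translation initiation factor, with 234 kb, at 603 and 625 CPM (-0.05), and PGK1, of glycolysis, with 219 kb, at -0.10.

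Per barcode, genes of at least 100 kb took a median of 6.17% of the non-MT UMIs (quartiles 5.39 and 7.02%) in low-mitochondrial barcodes of RWPE-ERG-mAKT, against 12.1% (9.98 and 14.2%) in comparison barcodes, so the quartile ranges did not overlap. In RWPE1 the medians were 8.65% and 16.2%. Ribosomal protein mRNAs took a median of 29.8% (27.4 and 31.9%), against 25.4%, in RWPE-ERG-mAKT and 27.1%, against 26.8%, in RWPE1.

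Host transcripts of microRNAs are a list added after these values were seen, so its count is a description that the choice of genes may have set. Of 6 compared in RWPE-ERG-mAKT 4 (66.7%) were more than 2-fold lower, with 20% over all compared genes. The list median was -2.59, and the log2 ratio of the UMIs summed over the list was -1.04. MIR31HG was at 8.10 CPM in low-mitochondrial and 63.9 CPM in comparison barcodes (-2.98), and MIR100HG at 20.2 and 104 CPM (-2.36). MIR29B2CHG (-3.12) and MIR222HG (-2.82) rested on 5 and 6 UMIs. MIR205HG, the host of a microRNA of basal epithelium, has a span of only 4.02 kb and was at -0.39 in RWPE-ERG-mAKT, but at 541 and 1645 CPM (-1.61) in RWPE1. Of 25 genes known to keep introns in their polyadenylated nuclear RNA, such as CLK1 and OGT, 3 (12%) were lower and 0 higher. That share was below the 20% lower over all compared genes, and the median of -0.40 was near the median of all genes.

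mRNAs of the translation machinery were close to or above the level of the comparison barcodes. Of the 79 ribosomal protein genes 0 passed 2-fold in either library, and all 79 lay above the median of all genes in RWPE-ERG-mAKT (list median 0.23, against -0.32). Ribosomal protein genes are short, with a median span of 5.38 kb. Against the median of compared genes of like span, their median difference in RWPE-ERG-mAKT was only 0.12. In RWPE1 the list median was 0.35 against 0.32, so they did not stand apart there. RPS12, of the small subunit, was at 7956 CPM in low-mitochondrial and 5848 CPM in comparison barcodes of RWPE-ERG-mAKT (0.44) and at 7187 and 4532 CPM in RWPE1 (0.67). RPL8, of the large subunit, had 0.42 and 0.60. The 36 translation factors compared in RWPE-ERG-mAKT had a median of 0.06, with 0 called, and 21 in RWPE1 had 0.45, with EIF2S2 at 0.51 and 0.56 and NACA, which binds nascent chains at the ribosome, at 0.39 and 0.72.

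The nuclear genes of the respiratory chain did not share the scarcity of its mitochondrial genes. Of 75 nuclear-encoded subunits of oxidative phosphorylation, 0 were more than 2-fold higher or lower in RWPE-ERG-mAKT, 74 were above the median of all genes, and the list median was 0.31. In RWPE1 33 could be compared, with 0 called and a median of 0.32, the same as that of all genes. COX5A, which sits in the same enzyme as MT-CO2, was at 929 CPM in low-mitochondrial and 610 CPM in comparison barcodes of RWPE-ERG-mAKT (0.61) and had 0.48 in RWPE1. COX6B1 was at 677 and 469 CPM (0.53) and had 0.58 in RWPE1. NDUFC1 of complex I had 0.48 and 0.90, and ATP5ME of the ATP synthase 0.46 and 0.58.

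**Figure D4:**
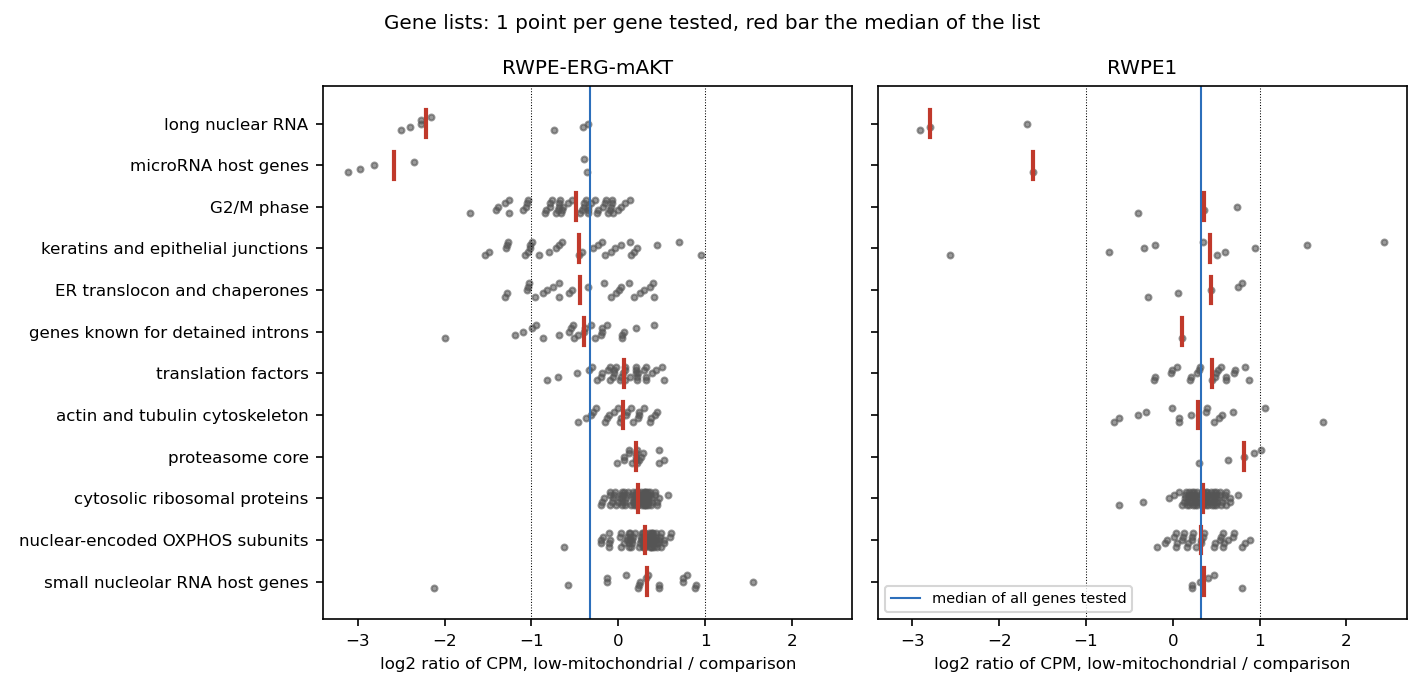
Log2 ratio of CPM, low-mitochondrial over comparison barcodes (x axis), for the compared genes of 12 lists (1 grey point a gene, red bar for the list median), RWPE-ERG-mAKT left and RWPE1 right, with the median of all compared genes as a blue line (-0.32 and 0.32). Long nuclear RNA has medians of -2.21 and -2.80. By median it lies farthest to the left in RWPE1. In RWPE-ERG-mAKT microRNA host genes, a list added after the values were seen, do (-2.59). Ribosomal protein and oxidative phosphorylation genes lie between -0.62 and 0.90.

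Other cytosolic groups lay close to the comparison barcodes. GAPDH, of glycolysis, was at 4669 CPM in low-mitochondrial and 3142 CPM in comparison barcodes of RWPE-ERG-mAKT (0.57) and at 3784 and 2803 CPM in RWPE1 (0.43), while ENO1 had 0.00 and 0.08. GAPDH turned with the setting, to -0.19 in RWPE-ERG-mAKT among barcodes of at most 2500 genes, and was at 0.20 there at 900 UMIs a barcode. Of 17 glycolysis genes compared in RWPE-ERG-mAKT 1 (5.88%) was lower, against 20% over all compared genes, with a median of -0.11. Of 6 in RWPE1 0 were called, with a median of 0.21. Of 24 actin and tubulin cytoskeleton genes 0 were called in RWPE-ERG-mAKT (0.06), and PFN1, MYL6 and TMSB10 had 0.44, 0.38 and 0.36. In RWPE1 2 of 16 (12.5%) were higher, against 5.21% over all compared genes there. These were ACTG1 at 2003 and 605 CPM (1.73) and ACTB at 3943 and 1894 CPM (1.06), but 1 barcode held 66.7% and 59.7% of their UMIs. ACTB was at -0.011 with a limit of 0.25% MT- and at -0.060 with 1%. The 17 proteasome core genes, a list added after the values were seen, had a median of 0.21 with 0 called in RWPE-ERG-mAKT, and 5 had 0.82 in RWPE1, with PSMA7 higher (1.02).

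The list of the endoplasmic reticulum lay near the background of all genes. Of 26 genes of the translocon and its chaperones 5 (19.2%) fell more than 2-fold in RWPE-ERG-mAKT and 0 rose, against 20% lower over all compared genes, and the list median was -0.44 against -0.32. Among barcodes of at most 2500 genes it was -1.07. The 5 lower genes are chaperones. HSP90B1 was at 120 CPM in low-mitochondrial and 296 CPM in comparison barcodes (-1.30), HSPA5, the BiP chaperone, at 127 and 259 CPM (-1.03), and PDIA4 (-1.29), PDIA3 (-1.05) and CANX (-1.04) were like them. HSPA5 spans 6.49 kb and CALR, at -0.87, 5.88 kb. The small translocon subunits SEC61G and SEC61B were at 0.41 and 0.36, and SRP14 of the signal recognition particle at 0.40. In RWPE1 5 could be compared and 0 were called (median 0.44), with HSP90B1 at -0.28.

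Of 31 genes of keratins and epithelial junctions 9 (29.03%) fell more than 2-fold in RWPE-ERG-mAKT and 0 rose, against 20% lower over all compared genes, and the list median was -0.45 against -0.32. The 9 were TP63, the basal transcription factor, at 22.8 CPM in low-mitochondrial and 66.2 CPM in comparison barcodes (-1.54), and LAMA3 (-1.49), ITGB4 (-1.29), CDH1 (-1.29), ITGA6 (-1.27), COL17A1 (-1.08), DSC3 (-1.04), DSG3 (-1.02) and ITGA3 (-1.01), which encode laminin, integrins, cadherins and a hemidesmosomal collagen. KRT17 was at 6949 and 6772 CPM (0.04), KRT5 at 1723 and 2017 CPM (-0.23), KRT14 at 1611 and 2201 CPM (-0.45), KRT8 at 393 and 355 CPM (0.15) and KRT18 at 573 and 587 CPM (-0.03). These 5 keratins were within 2-fold of the comparison barcodes, but among barcodes of at most 2500 genes KRT14 was at -1.97 and the list median at -1.41.

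In RWPE1 the keratins were farther apart, over few UMIs. KRT13 rose to 1224 CPM in low-mitochondrial barcodes, against 226 CPM (2.44, 77 UMIs), and KRT8 to 1383 CPM, against 473 CPM (1.55). With a limit of 1% MT- they were at 0.17 and 0.56, within 2-fold. KRT14 fell to 286 CPM, against 1697 CPM (-2.57, 18 UMIs), and KRT5 was at 1320 and 2201 CPM (-0.74). KRT18 was at 1797 and 1257 CPM (0.51). KRT13 in RWPE-ERG-mAKT was at 13.7 and 7.07 CPM (0.95), with 42.6% of its UMIs in 1 barcode. With a limit of 0.25% MT- it was at -0.97 there, over 10 UMIs, too few for a compared gene. TP63 had 1 UMI in the 12 barcodes.

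ERG and AKT1 had UMIs in the low-mitochondrial barcodes of RWPE-ERG-mAKT only. AKT1 UMIs are not read as mAKT, which was not visible as a higher AKT1 count in the comparison barcodes. ERG had 67 UMIs, 17.0 CPM in low-mitochondrial and 21.8 CPM in comparison barcodes (-0.36, -0.73 to -0.01), near the median of all genes. AKT1 had 73 UMIs, 18.5 and 19.0 CPM (-0.04). Both had 0 UMIs in the 12 barcodes of RWPE1, which allows up to 47.7 CPM. VIM, the mesenchymal intermediate filament, was at 179 and 245 CPM (-0.45) in RWPE-ERG-mAKT and had 2 UMIs in the 12 barcodes, against 275 CPM.

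Cell cycle genes as a list did not stand apart from all genes in RWPE-ERG-mAKT. Of 50 G2/M genes 10 fell in RWPE-ERG-mAKT and 0 rose, which at 20% is the share over all compared genes, with a median of -0.49. Among the 10 were ANLN, of the contractile ring, at 35.7 CPM in low-mitochondrial and 117 CPM in comparison barcodes (-1.71), CENPF, of the kinetochore, at 154 and 408 CPM (-1.40), and MKI67 at 94.9 and 197 CPM (-1.06). The median was -0.07 at 900 UMIs a barcode and 0.30 among barcodes of at most 2500 genes, so the sign of the list turned. UBE2C (0.08), CKS1B (0.04) and HMGB2 (0.00), also of G2/M, were level. Of 45 S phase genes 1 fell, with a median of -0.10. In RWPE1 3 G2/M genes could be compared, with 0 called, and 0 of the S phase. Summed over each list, the RWPE1 log2 ratio was -0.58 for G2/M (-0.75 to -0.42, 288 UMIs). For the S phase it was -0.59 (-0.86 to -0.34, 120 UMIs). In RWPE-ERG-mAKT these sums were at -0.43 and -0.06.

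Immediate early, stress and inflammatory genes went both ways. Over all compared genes of RWPE-ERG-mAKT 0.416% rose and 20% fell. Of 31 immediate early and stress genes compared 1 (3.23%) rose and 3 (9.68%) fell (median -0.16). GADD45B, a stress-response gene, rose to 72.6 CPM in low-mitochondrial barcodes of RWPE-ERG-mAKT, against 25.1 CPM (1.53), while FOSL1 (-1.91), FOSB (-1.73) and EGR1 (83.0 and 173 CPM, -1.06) fell. DDIT3 and ATF3, of the unfolded protein and amino acid responses, were at 0.99 and 0.96. Of 18 p53 targets 2 (11.1%) fell and 0 rose (-0.20), and 4 metallothioneins had a median of -0.15 with 0 called. Of 16 NF-kB targets 3 (18.8%) rose and 1 (6.25%) fell, with a median of 0.46. That median was 0.02 without 3 barcodes described next and -0.14 against barcodes of 0.5 to 2% MT-. Of 20 interferon response genes 5 (25%) rose and 1 (5%) fell (median -0.09). A single one of the barcodes described next held the most UMIs of ISG15, IFIT2, ISG20 and OASL, which were among those that rose.

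The 42 higher genes of RWPE-ERG-mAKT were unevenly spread over barcodes. For 22 of them a single barcode held at least 20% of the UMIs. SPRR3, of the cornified envelope that seals squamous epithelium, had the largest ratio (5.20), and all its 78 UMIs came from 1 barcode. S100A8 was at 505 CPM in low-mitochondrial and 60.02 CPM in comparison barcodes (3.07), with 68.4% of its UMIs in 1 barcode, and S100A9, its partner in calprotectin, at 622 and 191 CPM (1.71), with 59.6%. IGFL1 was at 352 and 38.6 CPM (3.19), with 51.7%, and CCL20, a chemokine, had 1.62, with 59.4%. ISG15, an interferon-induced ubiquitin-like protein, was at 650 and 245 CPM (1.41), with 29.8% in 1 barcode.

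The same few barcodes recurred. A barcode of 14533 UMIs and 0.323% MT- held the most UMIs of 8 of the 42 genes, the interferon-induced ISG15, IFIT2, ISG20 and OASL among them. A barcode of 38620 UMIs held the most of 6, with CCL20, CXCL8 and GADD45B, and a barcode of 39518 UMIs the most of 5, with S100A8, S100A9, SPRR2A and SPRR3. Without these 3 barcodes 29 genes were higher, S100A8 was at 1.44 and ISG15 at 0.93. Barcodes with any UMI of S100A8 were 15.1% of the low-mitochondrial and 17.7% of the comparison barcodes, and those with any UMI of ISG15 52.1 and 73.8%, at median depths of 2746.5 and 12639 UMIs. Among barcodes of at most 2500 genes S100A8, S100A9 and IGFL1 were lower in low-mitochondrial than in comparison barcodes (-0.44, -0.40 and -0.91).

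**Figure D5:**
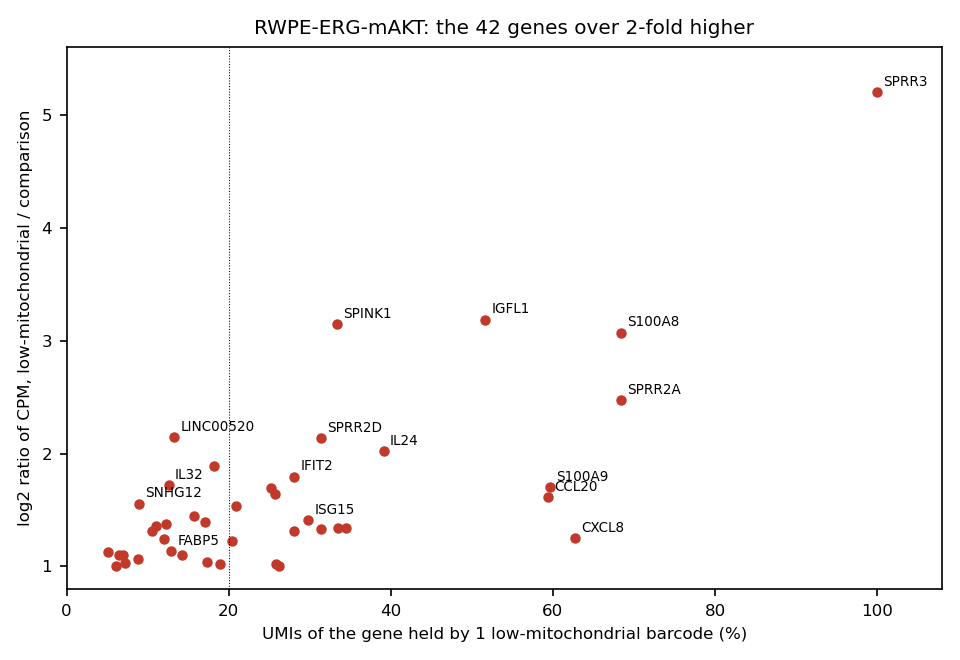
The 42 genes more than 2-fold higher in low-mitochondrial than in comparison barcodes of RWPE-ERG-mAKT, by log2 ratio of CPM (y axis) and by the share of the gene's low-mitochondrial UMIs held by 1 barcode (x axis, percent), 1 point a gene. SPRR3 lies at the far end of both axes, with 5.20 and all UMIs in 1 barcode, and FABP5 and SNHG12 lie at 12.9% and 8.89%.

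Some of the 42 genes had UMIs in many barcodes. FABP5, an epidermal fatty acid binding protein, was at 965 CPM in low-mitochondrial and 439 CPM in comparison barcodes of RWPE-ERG-mAKT (1.14), from 475 of the 716 barcodes. SNHG12, a host of small nucleolar RNAs, was at 45.5 and 15.5 CPM (1.56), from 96 barcodes with at most 8.89% in 1. LINC00520 was at 53.4 and 12.1 CPM (2.15), from 55 barcodes, and IL32 at 40.2 and 12.2 CPM (1.72), from 60. Some of these calls ended under other settings. Without the low-mitochondrial barcodes of at least 20000 UMIs FABP5 was at 0.49, with 1575 of its 3815 UMIs left. SNHG12 was at 1.90 and LINC00520 at 1.94 in that setting. Against barcodes of 0.5 to 2% MT- FABP5 was at 0.67 and SNHG12 at 0.47, at 900 UMIs a barcode FABP5 was at 0.55, and among barcodes of at most 2500 genes FABP5 was at 0.80 and LINC00520 at 0.94. Several spliced host RNAs of small nucleolar RNAs are exported and degraded on translation. The list, added after the values were seen, had a median of 0.34 over 18 genes. Of these, 1 was higher and 1 lower (5.56% each), against 0.416% higher and 20% lower over all compared genes. The lower one was SNHG14 of 441 kb (-2.13), and SNHG11 (0.90), SNHG15 (0.88) and GAS5 (0.35) lay above the median of all genes.

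The other lists added after the values were seen, the cornified envelope and the S100 proteins, were made from genes already known to be high, so their counts are not given as a result. SPRR2D was at 35.4 CPM in low-mitochondrial and 8.06 CPM in comparison barcodes of RWPE-ERG-mAKT (2.14), with 31.4% of its UMIs in 1 barcode, SPRR2A had 2.47, with 68.4%, and SPRR1B 1.64, with 25.7%. In RWPE1 S100A14 was higher (1.00).

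The 12 barcodes of RWPE1 were mixed among themselves. The 5 largest had 17927, 16839, 8336, 7869 and 3643 UMIs and the other 7 between 1046 and 1494. Their ribosomal protein share ran from 11.9 to 44.3%, their share of genes of at least 100 kb from 4.43 to 36.7% and their MALAT1 share from 0 to 0.781%. The barcode of 8336 UMIs had the highest MALAT1 share, 0.781%, with 16.4% in long genes, near the comparison medians of 0.983 and 16.2%. A barcode of 1084 UMIs had 36.7% of its UMIs in long genes and 11.9% in ribosomal protein genes, against 4.43 to 16.4% and 21.2 to 44.3% in the other 11. The other 10 had MALAT1 shares of 0 to 0.145%.

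Beside KRT13, KRT8, ACTG1, ACTB, PSMA7 and S100A14, the higher genes of RWPE1 included UBB (1.44), a polyubiquitin gene, PSME2 (1.39), an activator of the proteasome, and DBI (1.34), an acyl-CoA binding protein. The lower ones beside those named above were ADK (-1.33), FKBP5 (-1.06) and the histone gene HIST1H4C (-3.67, 5 UMIs), which was at -0.03 in RWPE-ERG-mAKT and, with an MT- limit of 1%, at 0.31 in RWPE1.

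Markers of cells other than epithelium were almost absent. In RWPE-ERG-mAKT the low-mitochondrial barcodes held 2 UMIs over 11 microglia genes, 0 over 8 of the choroid plexus, 2 over 10 immune genes, 14 over 6 red blood cell genes (3.54 CPM, against 1.57 CPM), 19 over 7 neuroendocrine genes, 39 over 7 endothelial genes (9.87 and 9.88 CPM) and 57 over 8 fibroblast genes (14.4 and 30.1 CPM). The 12 barcodes of RWPE1 had 0 UMIs in all 7 lists.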

How the data were processed

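The deposited matrices hold the count of UMIs for each of 36601 genes in each barcode, as the authors' Cell Ranger 7.1.0 run on hg38 gave it (versions from the submitters' processing notes), with no normalization. Whether intronic reads were counted is not given in the sources used here. Counts were summed over the barcodes of a class within a library without MT- genes and scaled to CPM, and log2 ratios (low-mitochondrial over comparison) carry 95% intervals of a ratio of Poisson counts. A gene was compared when its mean CPM gave at least 20 expected UMIs in the smaller class, and called past 2-fold. With 1 library for each condition no test was made. Shares carry exact (Clopper-Pearson) intervals, and a count of 0 is limited by 3 counts. Spans are those of whole genes in GENCODE 29, over all annotated transcripts of a gene. That release holds 34616 of the 36601 identifiers (94.6%). No doublet caller was run.

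Named genes were, by rule, in each list the up to 4 genes with the largest smaller change over both libraries, genes called in the same direction in both, and MALAT1, NEAT1, ERG, AKT1, KRT5, KRT8, KRT18, TP63 and VIM. All other names were chosen after their values were seen. The members and 24 lists were chosen with earlier results of these data known, and 5 lists were added later. The scripts, tested on simulated data, ran under matplotlib 3.10.9, pandas 2.3.3, scipy 1.17.1, numpy 2.4.6 and Python 3.11.15.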

Additional observations from a re-analysis of the deposited data

How the results depend on the processing

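No paired analysis was possible because each condition had 1 library, and for the same reason no library could be left out. The share of low-mitochondrial barcodes in RWPE-ERG-mAKT was 3.52% with a limit of 0.25% MT-, 6.70% with 1%, 6.42% from 500 UMIs, 2.92% from 2000 UMIs and 24.2% among barcodes of at most 2500 genes. In RWPE1 it was 0.285% with 1%, 0.305% from 500 UMIs, 0.0412% from 2000 UMIs and 1.19% at most 2500 genes. The share stayed higher in RWPE-ERG-mAKT under each of these.

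The counts of higher and lower genes moved most. In RWPE-ERG-mAKT higher genes numbered 16 with 0.25% MT-, 85 with 1%, 23 against barcodes of 0.5 to 2% MT-, 122 at most 2500 genes, 24 at 900 UMIs a barcode (4480 genes compared), 106 by median-of-ratios, 113 from 5 expected UMIs and 1299 from 1 UMI in each class. Lower genes numbered 917 with 1%, 1257 against 0.5 to 2%, 714 at 900 UMIs, 1212 by median-of-ratios, 3061 from 5 expected UMIs and 3971 from 1 UMI. In RWPE1 higher genes numbered 5 with 0.25%, 33 with 1%, 9 against 0.5 to 2%, 6 at most 2500 genes, 1 at 900 UMIs (86 genes compared), 12 by median-of-ratios, 137 from 5 expected UMIs and 1296 from 1 UMI. Lower genes there numbered 6 with 0.25%, 76 with 1%, 3 at most 2500 genes, 1 at 900 UMIs, 284 from 5 expected UMIs and 1380 from 1 UMI. Median-of-ratios scaling compared the same number of genes (10092 and 365), while the other settings also changed how many could be compared.

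The alternative that left out barcodes with ordinary MALAT1 (-4.04) selects on MALAT1 itself and is set aside here. MALAT1 was lower under all others in RWPE-ERG-mAKT, from -3.98 among barcodes of at most 2500 genes to -0.65. The last was with a limit of 1% MT-, where it was no longer past 2-fold. There it was -0.61 in RWPE1. The median of genes of at least 100 kb lay between -1.38 and -0.69 in RWPE-ERG-mAKT, that of ribosomal protein genes between 0.10 and 0.54 and that of nuclear oxidative phosphorylation genes between 0.19 and 0.61. Of the single-gene values and list medians 47 had the other sign under an alternative. Of these, 41 belonged to values within 2-fold to begin with, such as the G2/M median (0.30) and GAPDH (-0.19) in RWPE-ERG-mAKT among barcodes of at most 2500 genes and the NF-kB median (-0.14) against 0.5 to 2% MT-. The other 6 were past 2-fold to begin with, S100A8 (-0.44), S100A9 (-0.40) and IGFL1 (-0.91) in RWPE-ERG-mAKT among barcodes of at most 2500 genes, and in RWPE1 ACTB (-0.011 with 0.25% MT- and -0.060 with 1%) and HIST1H4C (0.31 with 1%). The cause was not tested. Leaving out these 6, 316 values moved by more than a set margin and 672 did not. For medians that margin came from the quartiles across genes, and for single genes from the counting interval. Abundant genes therefore passed it with small shifts, such as GAPDH in RWPE-ERG-mAKT from 0.57 to 0.55 with 0.25% MT-. Alternatives that leave out barcodes of at least 20000 UMIs, barcodes with ordinary MALAT1 or the 3 barcodes named above were chosen after seeing the data. In RWPE1 the 12 barcodes limit the comparison to abundant genes.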
